A study of Mus musculus with 8 samples.

Results

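The genes described here are 45 skeletal muscle contractile genes read in brown adipose tissue. They were chosen by name: every non-control probe whose gene name on the array was one of the 45 symbols was taken. The symbols were found on 63 probes, of which 61 were bright enough to keep, and 44 of the 45 genes entered the test among 21715 genes in all. The gene left out was Myog, a myogenic transcription factor, whose probe was well above background in 2 of 4 knockout and 1 of 4 wild-type channels at 11 months and in none at 6 weeks.

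Brown adipose tissue of Prdm16 knockout mice and wild-type mice was compared at 11 months and at 6 weeks of age on Agilent 2-colour arrays, 4 per age. On every array a knockout sample was hybridised together with a wild-type sample of its own age, and the knockout was labelled with Cy5 on 2 arrays of each age and with Cy3 on the other 2. The labels name neither the allele, a Cre driver, the strain nor the sex, and they describe the 4 samples per condition as biological replicates. The ages were processed as separate batches on separate slides, so age and batch cannot be told apart. Values are log2 knockout over wild type within an array unless a level is named, and a level is the log2 normalized intensity of 1 channel.

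Skeletal muscle fibres are built from sarcomeres, in which myosin filaments pull on actin filaments and the troponin and tropomyosin complex gates the pull by calcium. Fast and slow fibres use different gene copies for many of these parts, so the copies show which fibre type the RNA came from. Brown fat of the mouse lies close to back and neck muscles and shares a developmental origin with skeletal muscle, and PRDM16, a zinc-finger coregulator, is known for its role in the choice between brown fat and muscle. Myoglobin, desmin and tropomyosins are also made in cells other than skeletal muscle fibres.

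The sequences shown are those of 4 probes that carry the contrast between genes, read 5′ to 3′ from the array annotation (mm9). They stand for skeletal alpha-actin (Acta1, chr8:126416197-126416256, minus strand), for the slow troponins C (Tnnc1, chr14:32023360-32023776, plus strand) and I (Tnni1, chr1:137705328-137706203, plus strand), and for the dimmer of 2 Tpm3 probes (chr3:89877669-89877728, plus strand). The Tnnc1 and Tnni1 intervals are longer than the 60-base probes. No base is marked in these lines.
Acta1: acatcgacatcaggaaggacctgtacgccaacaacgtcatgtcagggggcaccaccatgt
Tnnc1: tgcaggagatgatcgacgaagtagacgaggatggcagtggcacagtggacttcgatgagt
Tnni1: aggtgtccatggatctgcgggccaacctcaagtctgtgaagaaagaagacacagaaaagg
Tpm3: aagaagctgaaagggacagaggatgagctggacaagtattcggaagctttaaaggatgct

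Upstream sequence was compared because members that move together can share it. RefSeq promoters (GRCm38.p6) were matched by symbol for 32 of the 45 genes. In the 250 bases before the start, CAGCTG, the E-box that MyoD-family factors bind in muscle, stood in 16 of the 32 genes, against 14.7% of all genes. Counted by promoter it stood in 18 of 39, or 46.2%, against 13% of all 32851 promoters of the same length. Windows of one gene can overlap, as those of Tnni1 do, so a site can count more than once by promoter. CAGCTG reads the same on both strands and no other motif was searched. The match did not follow the groupings reported further on: Acta1, Ckm and Myh4 hold it, as do Mb, Des, Tpm3 and Tnni1, and it is not in the windows of Myh1, Tnnc2, Myh7, Tnnt1 or Tnnc1. The 3 windows shown are Acta1 (chr8:123894776-123895025, minus strand), Ckm (chr7:19410844-19411093, plus strand) and Tnni1 (chr1:135799171-135799420, plus strand, the first of 2 starts), with CAGCTG in capitals.
Acta1: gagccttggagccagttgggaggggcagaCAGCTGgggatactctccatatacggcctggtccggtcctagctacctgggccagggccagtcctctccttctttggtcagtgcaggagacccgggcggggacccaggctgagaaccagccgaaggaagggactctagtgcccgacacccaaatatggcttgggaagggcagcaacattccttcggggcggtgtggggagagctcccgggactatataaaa
Ckm: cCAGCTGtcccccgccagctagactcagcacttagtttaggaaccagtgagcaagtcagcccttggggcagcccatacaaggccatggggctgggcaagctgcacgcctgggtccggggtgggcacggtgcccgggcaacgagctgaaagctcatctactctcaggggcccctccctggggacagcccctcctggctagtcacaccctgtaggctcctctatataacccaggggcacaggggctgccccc
Tnni1: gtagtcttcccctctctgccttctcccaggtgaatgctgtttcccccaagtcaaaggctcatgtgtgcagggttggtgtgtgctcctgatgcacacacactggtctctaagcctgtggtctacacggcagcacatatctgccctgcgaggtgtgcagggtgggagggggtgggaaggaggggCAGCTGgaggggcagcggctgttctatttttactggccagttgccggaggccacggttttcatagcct

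The arrays were alike by spot counts, with 61.2% to 68.2% of spots well above background per channel and 131 to 247 excluded spots per array. Array weights, estimated from the scatter of each array around the fit, were less even. They ranged from 0.43 for 11-month array 4 to 1.69 for 11-month array 2. Prdm16 itself was lower in knockout tissue in 4 of 4 arrays at 11 months (-0.96, -0.18, -0.44 and -0.42) and in 3 of 4 at 6 weeks (-0.39, 0.06, -1.09 and -0.88). Its fitted change was -0.50 ± 0.15 (SE, limma adjusted p = 0.037) at 11 months and -0.58 ± 0.15 (adjusted p = 0.042) at 6 weeks. The labels do not say whether its probe lies in the deleted part, so it may check nothing. Ucp1, the uncoupling protein that defines brown fat, had levels of 12.20 to 15.62 in 11-month knockout channels, 18.29 to 18.85 in 11-month wild-type channels, 17.53 to 17.88 in 6-week knockout channels and 17.30 to 17.81 in 6-week wild-type channels. One pair of channels stood apart from the rest. The knockout channels of 11-month arrays 1 and 2, both Cy5, differed over the members by a median of 0.08 and by at most 0.37, whereas the median was 0.25 to 3.35 in the other 23 pairs of one genotype and age. Over all 8306 genes with a mean level above 10, the SD of the difference in that pair was 0.12, the lowest of the 24 pairs. By the median absolute difference over such genes the pair, at 0.072, was not the lowest. The 6-week wild-type channels of arrays 3 and 4 had 0.056 there, although their members differed by a median of 2.17. Sampling noise could not be measured, as no technical replicate is labelled, and whether both knockout channels hold RNA of 1 animal was not tested. The labels call them biological replicates, so both were kept as separate samples, and the counts were repeated with these 2 arrays averaged into 1.

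Most contractile genes swung up or down together by several log2 units from array to array, and for most of them the direction differed between the 4 arrays of either age. At 11 months the median over the 44 members was -0.47, -1.07, -0.24 and 1.72 in arrays 1 to 4. At 6 weeks it was 0.03, -2.51, 0.92 and -2.35. In array 4 at 11 months 39 members lay above 1, and in array 2 of that age 28 lay below -1. In arrays 2 and 4 at 6 weeks 36 and 34 members lay below -1, whereas in array 3 of that age 21 lay above 1. Among all genes only 2.47% to 7.59% lay beyond 1 in either direction in an array, and the all-gene median stayed within 0.02 of 0 in every array. In tissue RNA, fewer muscle cells and less muscle RNA per cell cannot be told apart.

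**Figure D1:**
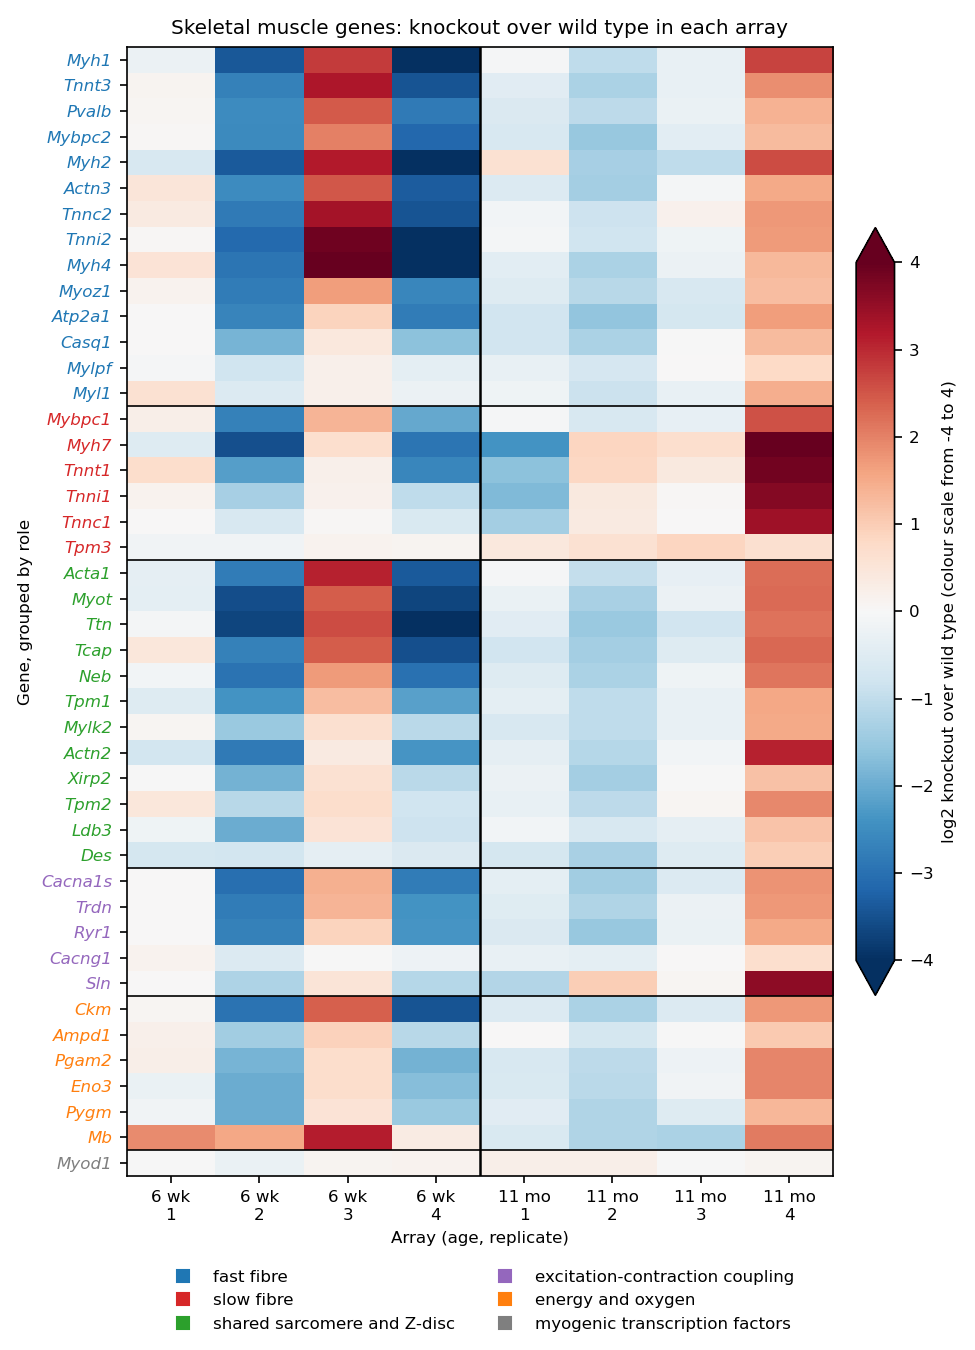
Heat map of log2 knockout over wild type for the 44 tested genes (rows, grouped and coloured by role) in each of the 8 arrays (columns), red for higher and blue for lower in knockout, with the colour scale ending at -4 and 4. Most rows are blue in 6-week arrays 2 and 4, red in 6-week array 3 and red in 11-month array 4, and Myh7, Tnnt1, Tnni1, Tnnc1 and Sln differ from them in 11-month arrays 1 and 2.

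Across the 4 arrays the limma fit called 1 of 44 members at 11 months, where 34.7% of all 21715 genes were called, and 0 of 44 at 6 weeks, where 16.2% of all genes were called. An unadjusted p below 0.05 was held by 1 member at 6 weeks, against 7108 of all 21715 genes, and by 2 at 11 months, against 9714. The difference between ages, 11 months minus 6 weeks, passed in 1 member, against 18.2% of all genes. These shares of members lay below those of all genes. The members' spread between arrays was large, and Acta1 had a fitted change of 0.23 ± 1.01 at 11 months and -0.86 ± 1.01 at 6 weeks. One sign in all 4 arrays was seen in 1 of 44 members at 11 months, against 50.3% of all genes, and in 2 of 44 at 6 weeks, against 34.5%. The ratios of the ages did not overlap in 1 of 44 members, against 19.5% of all genes. The median fitted value of the members was 0.004 at 11 months and -0.77 at 6 weeks. At 6 weeks that median lay between -1.89, without array 3, and -0.08, without array 2. At 11 months it lay between -0.64, without array 4, and 0.32, without array 2. With array weights the median was -0.45 at 11 months and -0.73 at 6 weeks. Without array 3, 31 of the 44 members had an unadjusted p below 0.05 at 6 weeks and 0 were called, where 7.11% of all genes were called. The share of all genes with such an unadjusted p was not counted there.

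**Figure D2:**
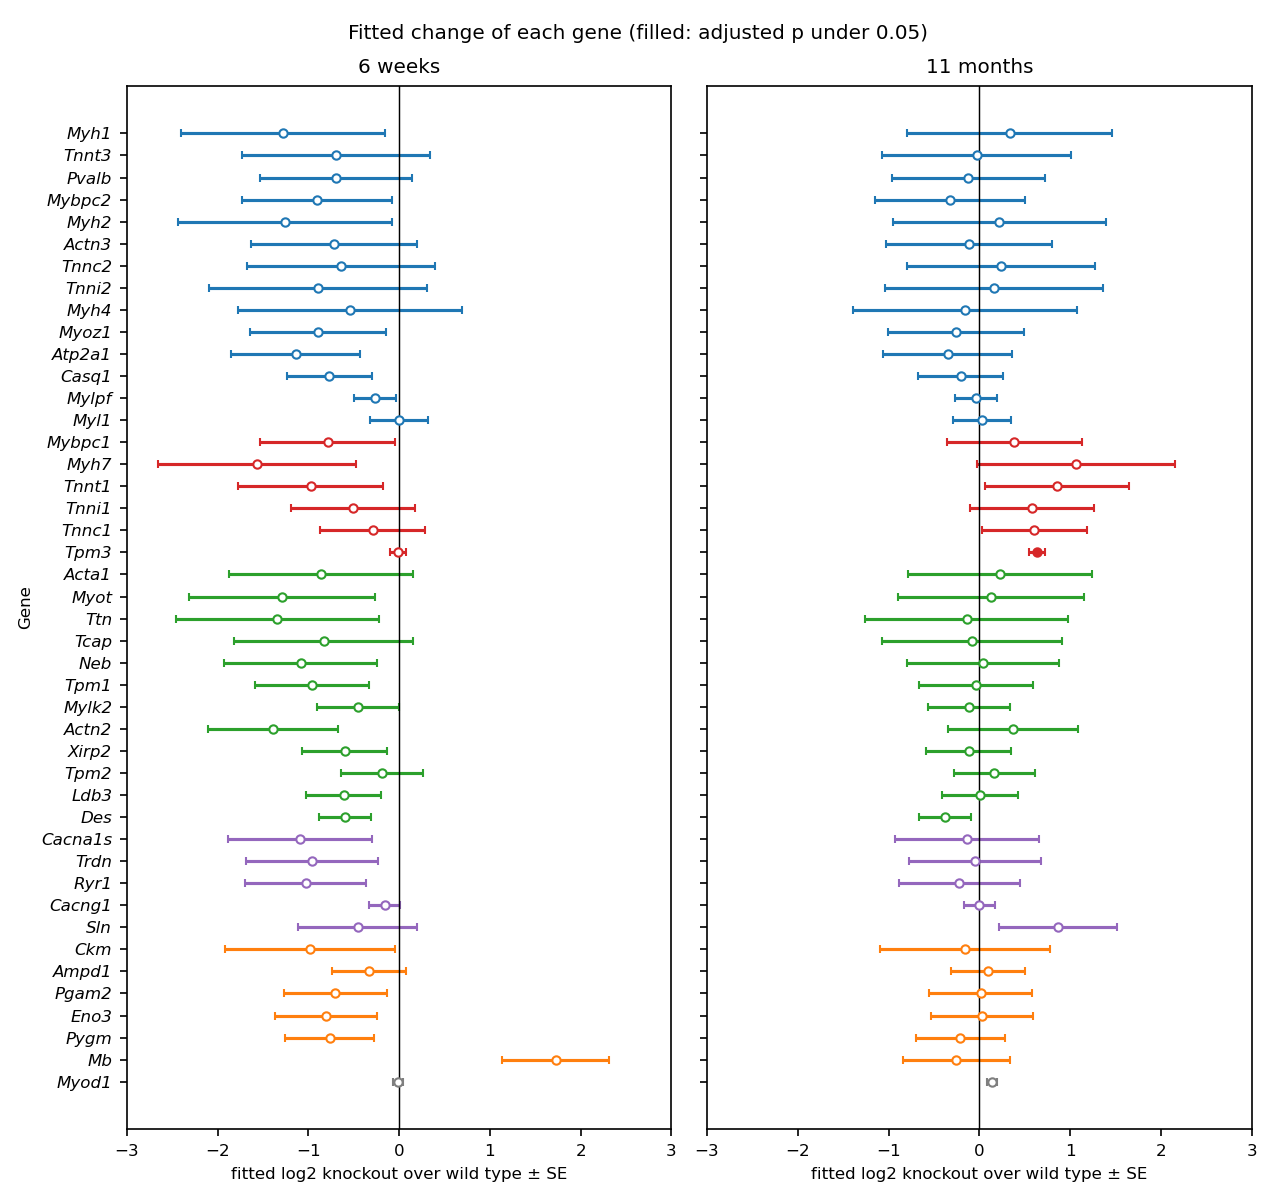
Fitted log2 knockout over wild type of each gene with its SE (horizontal bars), at 6 weeks in the left panel and at 11 months in the right panel, coloured by role as in the heat map. Filled points passed an adjusted p of 0.05, which holds for Tpm3 at 11 months only (0.63 ± 0.09).

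The fast-fibre genes made up the largest group, with 14 members and 0 called in any comparison. Myh4 encodes the myosin heavy chain of the fastest fibres. Its level was 15.66, 15.58, 14.42 and 17.21 in the 11-month knockout samples of arrays 1 to 4, against 16.09, 16.84, 14.65 and 15.93 in the wild-type samples. At 6 weeks its level was 11.17, 12.52, 12.64 and 9.69 in knockout samples, against 10.64, 15.44, 8.30 and 13.81 in wild-type samples. The genotypes overlapped at both ages. The ratios of Myh4 were therefore -0.43, -1.26, -0.23 and 1.28 at 11 months and 0.53, -2.92, 4.34 and -4.11 at 6 weeks. The 6-week ratio of 4.34 in array 3 came with the lowest wild-type level of all 8 arrays, and the ratios of -2.92 and -4.11 came with the highest 6-week wild-type levels.

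Myh1 and Myh2, the other fast myosins, followed the 6-week order of Myh4, and at 11 months were likewise lowest in array 2 and highest in array 4, with arrays 1 and 3 exchanged. Myh1 had ratios of -0.05, -1.02, -0.31 and 2.71 at 11 months and -0.23, -3.38, 2.80 and -4.31 at 6 weeks. Myh2 had 0.62 in array 1 of 11 months and 2.60 in array 4. The fast troponins Tnni2, Tnnt3 and Tnnc2, the fast alpha-actinin Actn3, the fast calcium pump Atp2a1 and the calcium buffer Pvalb moved alike, with r of 0.969 to 0.997 with Acta1. Over the 14 fast-fibre genes the median ratio was -0.44, -1.19, -0.28 and 1.48 at 11 months and 0.08, -2.68, 2.48 and -3.24 at 6 weeks.

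In the main ratios the fast light chains followed Acta1 less closely than the other fast-fibre genes. Mylpf, the fast regulatory light chain, was dim throughout (mean level 7.42) and not well above background in any 6-week knockout channel. Its r with Acta1 was 0.82 in the main ratios but 0.98 by the scanner software's own log ratio, so its departure depended on the processing. At 6 weeks the bound on its mean wild-type level over that in knockout tissue was 1.197-fold, close to the measured 1.198-fold. This bound covers the means of these samples only. Of the wild-type channels 2 of 4 were well above background, and the adjusted p was 0.47 in the limma fit, so no difference was called. Bounds of this kind set the mean of the brighter group against a mean that takes, in each dim channel, the higher of the lowest well-measured signal and the gene's own value. Myl1, the fast essential light chain, was bright in every channel, with levels of 13.97 to 16.20 in 11-month knockout samples, 14.28 to 15.97 in 11-month wild-type samples, 13.94 to 14.07 in 6-week knockout samples and 13.37 to 14.63 in 6-week wild-type samples. Its ratios stayed within 0.61 of 0 at 6 weeks, where those of Myh4 ranged from -4.11 to 4.34. At 11 months they were -0.16, -0.86, -0.31 and 1.45, close to the fast-fibre medians. Both kept Myl1 probes had r of 0.69 and 0.73 with Acta1 over the arrays. By the scanner ratio the brighter Myl1 probe had 0.68.

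**Figure D3:**
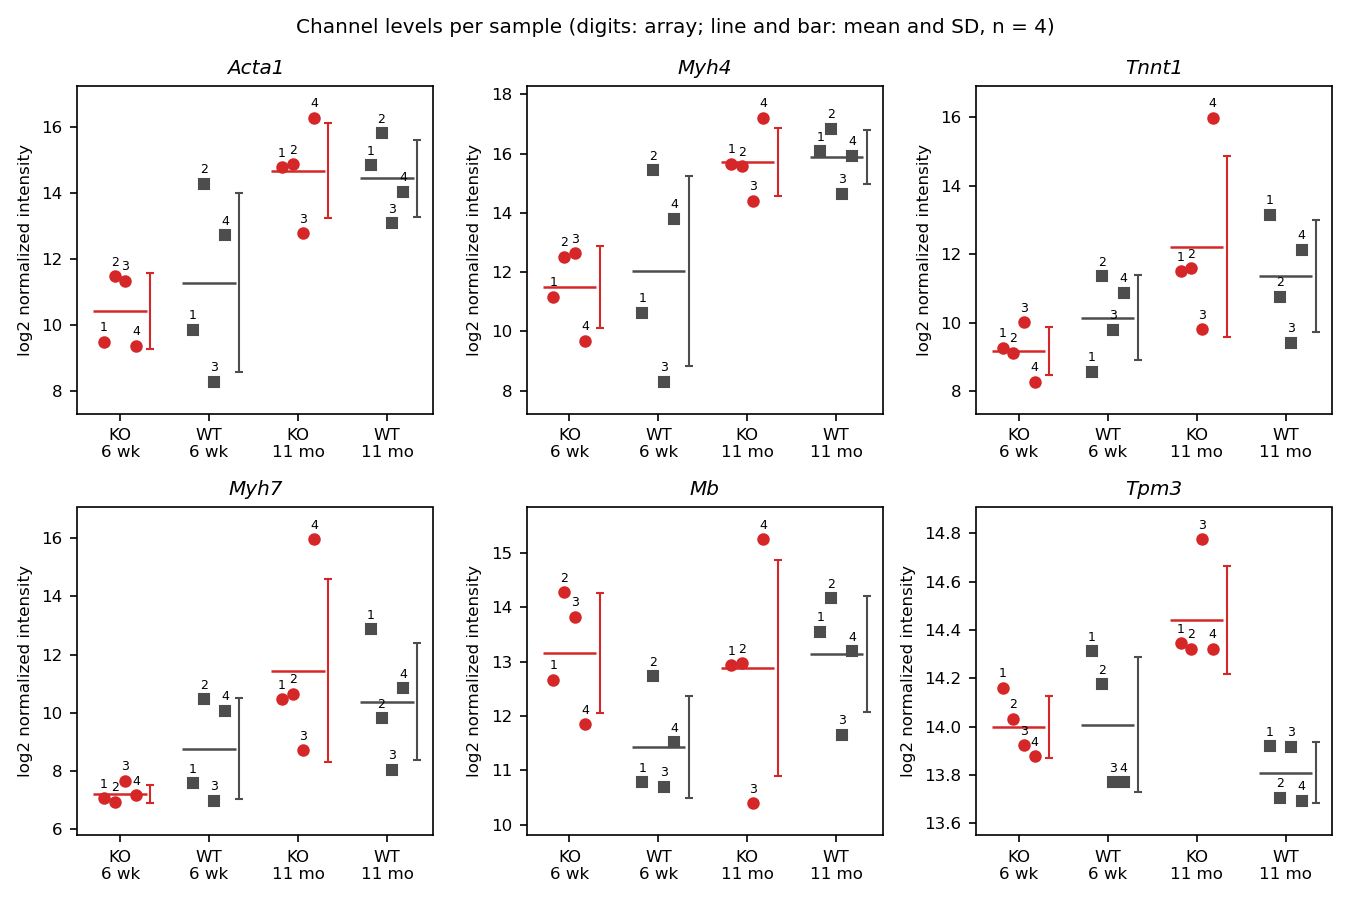
Log2 normalized intensity of 6 genes in every channel, knockout (red circles) left of wild type (grey squares) at each age, with the array number at each point and the mean and SD (n = 4) as line and bar. The genotypes overlap for every gene at both ages except Tpm3 at 11 months, where knockout levels of 14.32 to 14.78 lie above wild-type levels of 13.69 to 13.92.

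Many shared sarcomere and Z-disc genes swung with the fast-fibre genes. Acta1, the actin of skeletal muscle thin filaments, had levels of 14.80, 14.88, 12.78 and 16.29 in 11-month knockout samples, against 14.85, 15.82, 13.10 and 14.05 in wild-type samples. At 6 weeks it had 9.50, 11.49, 11.35 and 9.38 in knockout samples, against 9.86, 14.30, 8.28 and 12.73 in wild-type samples. Among 6-week wild-type samples arrays 2 and 4 were high and array 3 was low, and the 6-week knockout samples lay inside the wild-type range. The giant protein titin (Ttn), the ruler protein nebulin (Neb), telethonin (Tcap) and myotilin (Myot) had ratios of 2.13 to 2.30 in 11-month array 4 and of -3.68 to -2.71 in 6-week array 2. Of the 12 members of this group 0 were called.

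Excitation-contraction coupling genes, which carry the electrical signal to calcium release, also had 0 of 5 members called. The channel gene Cacna1s and triadin (Trdn), which anchors the calcium store, had ratios of 1.79 and 1.74 in 11-month array 4. The release channel Ryr1 had -2.69 and Trdn -2.80 in 6-week array 2. At 6 weeks Ryr1 was well above background in 3 of 4 knockout and 2 of 4 wild-type channels, and Trdn in 2 of 4 of each. Among the 6 genes of energy and oxygen supply, the muscle creatine kinase Ckm had -0.55, -1.26, -0.54 and 1.72 at 11 months and 0.09, -2.95, 2.38 and -3.45 at 6 weeks. The glycolytic genes Eno3 and Pgam2, the phosphorylase Pygm and the AMP deaminase Ampd1 were likewise lowest in array 2 and highest in array 4 at 11 months, and lowest in arrays 2 and 4 and highest in array 3 at 6 weeks. Their slopes per log2 unit of Acta1 were 0.39 to 0.53, against 0.92 for Ckm.

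To measure which genes moved together, each gene's 8 ratios were stripped of the age means and of the dye effect and correlated with those of Acta1. Of 43 members 27 had r of 0.9 or above, against 0.577% of 21648 genes. By role these were 12 of 14 fast-fibre genes, 1 of 6 slow-fibre genes, 6 of 11 shared sarcomere genes, 3 of 5 coupling genes, 5 of 6 energy genes and not Myod1. The closest were Myh1 (r = 0.997, Spearman's rho = 1), Tnnt3 (r = 0.997) and Myot (r = 0.995). In an exact permutation test over all 40320 pairings (two-sided), Myh1 had p = 2.5e-05 for r, the smallest the test can give, and p = 5.0e-05 for rho. Adjusted over all 21648 genes, 12 members passed 0.05, as did 0.106% of all genes. The removal of age and dye leaves fewer free values than 8, so these p-values are too small. Without the 2 arrays farthest from the median of Acta1, array 3 of 6 weeks and array 4 of 11 months, Myh1 kept r = 0.994 and 19 of 43 members had r of 0.9 or above.

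The size of the swing differed between genes that kept the same order. Per log2 unit of Acta1, the slope was 1.19 for Myh4, 1.17 for Tnni2 and 1.11 for Myh1, but 0.43 for Casq1, the calcium store of fast fibres, and 0.39 for Ampd1. At 6 weeks Casq1 was well above background in 2 of 4 knockout and 3 of 4 wild-type channels, and Ampd1 in 2 of 4 of each. The constant added to the background-corrected signal shrinks the ratios of dim probes, and its part in these slopes was not tested.

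Of the 6 slow-fibre genes, Myh7, Tnnt1, Tnni1 and Tnnc1 kept an order of their own at 11 months. Myh7, the slow myosin heavy chain, had ratios of -2.40, 0.85, 0.68 and 5.12 at 11 months. Its level was 10.46, 10.65, 8.72 and 15.96 in 11-month knockout samples, against 12.86, 9.81, 8.05 and 10.84 in wild-type samples. Array 4 thus held a knockout sample 5.30 log2 units above the next-highest knockout sample, and array 1 held the wild-type sample with the most Myh7. At 6 weeks its ratios were -0.52, -3.51, 0.69 and -2.91, with levels of 7.07, 6.95, 7.67 and 7.16 in knockout samples, against 7.58, 10.46, 6.98 and 10.07 in wild-type samples. There the wild-type samples of arrays 2 and 4 were high, as for the fast genes.

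The slow troponins behaved like Myh7. Tnnt1, the troponin T of slow fibres, had -1.65, 0.83, 0.39 and 3.85 at 11 months and 0.70, -2.22, 0.21 and -2.60 at 6 weeks. Tnni1 had -1.78, 0.40, 0.03 and 3.66 at 11 months and 0.13, -1.33, 0.17 and -1.0002 at 6 weeks. Tnnc1, also made in heart, had -1.37, 0.36, 0.03 and 3.41 at 11 months and 0.03, -0.64, 0.05 and -0.61 at 6 weeks. Sarcolipin (Sln), a small inhibitor of the calcium pump, joined them with -1.18, 0.99, 0.07 and 3.58 at 11 months.

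Set against the fast genes, Myh7, Tnnt1, Tnni1 and Tnnc1, a subset of the slow-fibre genes chosen after their values were seen and so not tested, lay below all 14 fast-fibre genes in 11-month array 1 and above all 14 in arrays 2 and 4. The medians of the 4 slow genes in 11-month arrays 1 to 4 were -1.71, 0.61, 0.21 and 3.75, against -0.44, -1.19, -0.28 and 1.48 for the fast genes. At 6 weeks the 4 slow genes had medians of 0.08, -1.77, 0.19 and -1.80, against 0.08, -2.68, 2.48 and -3.24 for the fast genes. In 6-week array 3, where the fast genes ranged from 0.19 to 4.34, the slow genes ranged from 0.05 to 0.69. Knockout and wild-type levels there were 7.67 and 6.98 for Myh7, 7.12 and 7.07 for Tnnc1 and 6.92 and 6.75 for Tnni1. The lowest well-measured signals were 6.59 and 6.78. Tnnt1 was brighter, at 10.02 and 9.80. The offset shrinks the ratios of dim probes, and its part in this range was not tested. The levels place the 11-month contrast between arrays 1 and 2 in the wild-type channels. The knockout samples of those arrays were almost equal, at 10.46 and 10.65 for Myh7 and 15.66 and 15.58 for Myh4. The wild-type samples of those arrays differed in opposite directions, at 12.86 and 9.81 for Myh7 and 16.09 and 16.84 for Myh4. If both knockout channels held RNA of 1 animal, its n at 11 months would be 3 and this placing would follow from it.

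**Figure D4:**
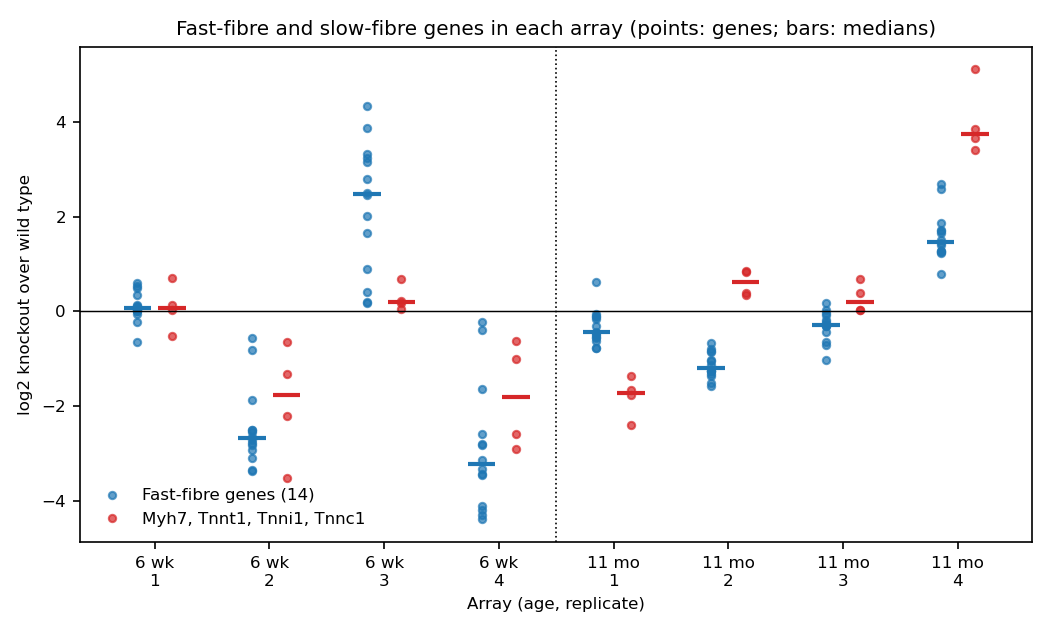
Log2 knockout over wild type in each array for the 14 fast-fibre genes (blue) and for Myh7, Tnnt1, Tnni1 and Tnnc1 (red), with points for genes and bars for medians. The red points lie below all blue ones in 11-month array 1 (medians -1.71 and -0.44) and above all blue ones in 11-month arrays 2 and 4.

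Likeness to Acta1 was accordingly lower for these genes, with r = 0.77 for Myh7 (rho = 0.55), 0.77 for Tnnt1 (rho = 0.69), 0.62 for Tnni1 (rho = 0.43) and 0.55 for Tnnc1 (rho = 0.38). By the exact permutation test their adjusted p lay between 0.54 and 0.83. Without the 2 farthest arrays r was 0.19 for Myh7, 0.39 for Tnnt1, -0.11 for Tnni1 and -0.34 for Tnnc1, so much of their likeness rested on those arrays. In the main ratios some members outside this set fell too, to 0.43 for Mylpf, 0.33 for Cacng1 and -0.39 for Des, while 19 of 43 members had r of 0.9 or above. Measured against Tnnt1, an anchor chosen after the data were seen, Myh7 had r = 0.97, Sln 0.95, Tnni1 0.93 and Tnnc1 0.87. The other members lay at 0.23 to 0.86 with Tnnt1. Mybpc1, a myosin-binding protein named for slow fibres, followed Acta1 instead (r = 0.94 with Acta1, 0.86 with Tnnt1).

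Tpm3, the tropomyosin of slow fibres that many non-muscle cells also make, was the only member called in the limma fit. By its brighter probe it had ratios of 0.43, 0.62, 0.86 and 0.63 at 11 months and -0.15, -0.14, 0.15 and 0.11 at 6 weeks. Levels were 14.35, 14.32, 14.78 and 14.32 in 11-month knockout samples, against 13.92, 13.71, 13.92 and 13.69 in wild-type samples. Knockout and wild type did not overlap at 11 months, and at 6 weeks they did. The fitted change was 0.63 ± 0.09 (1.55-fold, adjusted p = 0.0012) at 11 months and -0.01 ± 0.09 (adjusted p = 0.96) at 6 weeks. The difference between ages was 0.64 ± 0.12 (adjusted p = 0.013), and the ratios of the ages did not overlap. This probe had r = 0.21 with Acta1 and 0.23 with Tnnt1, so it followed neither group of fibre genes.

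The dimmer Tpm3 probe gave another picture, with ratios of -1.40, 0.25, 0.01 and 3.86 at 11 months and -0.09, -0.97, 0.08 and -0.85 at 6 weeks. At 6 weeks this probe was well above background in no knockout channel and in 2 of 4 wild-type channels, so its 6-week ratios are not measured on both sides. It had r = 0.88 with Tnnt1 and 0.60 with Acta1, and its fitted change at 11 months was 0.68 ± 0.65 (adjusted p = 0.47 over all probes). The rise of Tpm3 at 11 months therefore rests on 1 of 2 probes, and with the mean of both it was 0.66 ± 0.34 (adjusted p = 0.18).

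Probes of Tpm1, the alpha-tropomyosin made in striated and smooth muscle, also split. The 2 brightest had r of 0.983 and 0.985 with Acta1 and ratios of 1.55 and 1.65 in 11-month array 4. The other 3 had r of 0.52, -0.15 and 0.71, and none of their ratios lay beyond 1 in size. One of them had -0.57, -0.99, -0.59 and 0.09 at 11 months, a fitted change of -0.51 ± 0.12 (adjusted p = 0.012 over all probes), while another had 0.03, 0.07, -0.09 and 0.26. Tpm2, by contrast, gave r of 0.87 and 0.88 with its 2 probes. For Ldb3, a Z-disc protein also called ZASP, the 2 probes had r of 0.874 and 0.947 with Acta1 but opposite signs in arrays 1, 2 and 4 at 6 weeks and in arrays 1 and 3 at 11 months. The first had -0.19, -1.98, 0.55 and -0.83 at 6 weeks, and the second had 0.85, 0.66, 2.69 and 0.11. At 11 months the second probe had 0.52, -0.02, 0.16 and 1.92, against -0.11, -0.65, -0.35 and 1.13 for the first. The fitted 6-week change was 1.08 ± 0.44 for the second (adjusted p = 0.13 over all probes) and -0.61 ± 0.41 for the first (adjusted p = 0.35).

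**Figure D5:**
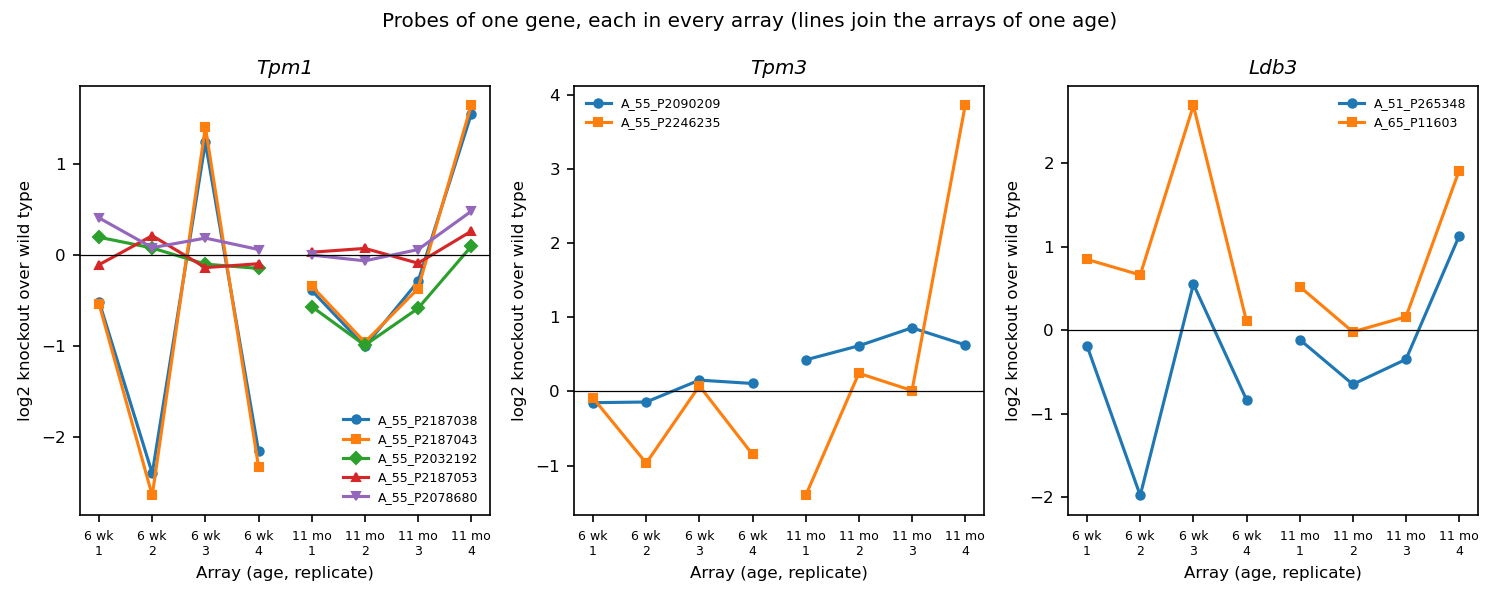
Log2 knockout over wild type of every kept probe of Tpm1, Tpm3 and Ldb3 in each array, with lines joining the arrays of one age. The 2 brightest Tpm1 probes swing between -2.65 and 1.65 while the other 3 stay within 1 of 0, and the 2 Tpm3 probes part in 11-month arrays 1 (0.43 and -1.40) and 4 (0.63 and 3.86).

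Myoglobin (Mb), which stores oxygen in muscle fibres and is also made in brown fat, departed from the other members at 6 weeks. Its ratios there were 1.88, 1.55, 3.14 and 0.33, positive in all 4 arrays, although most fibre genes lay far below 0 in arrays 2 and 4. Levels at 6 weeks were 12.67, 14.28, 13.83 and 11.85 in knockout samples, against 10.78, 12.73, 10.69 and 11.52 in wild-type samples. The genotypes overlapped, with array 4 knockout below array 2 wild type. The fitted change was 1.73 ± 0.59 with an adjusted p of 0.084 in the limma fit, so Mb was not called. It passed without 11-month array 4 (1.73 ± 0.40, adjusted p = 0.028) and with the Acta1 ratio as a covariate (2.16 ± 0.33, adjusted p = 0.014).

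At 11 months Mb had ratios of -0.61, -1.20, -1.27 and 2.06, with levels of 12.94, 12.97, 10.39 and 15.26 in knockout samples, against 13.55, 14.17, 11.66 and 13.19 in wild-type samples. The fitted change was -0.25 ± 0.59 (adjusted p = 0.78), and the difference between ages was -1.98 ± 0.83 (adjusted p = 0.14). Without 11-month array 4 that difference was -2.78 ± 0.62 (adjusted p = 0.029). Mb was the only one of the 44 members whose fitted difference between ages was negative. Its r with Acta1 was 0.87 (rho = 0.79) after the age means were removed, falling to 0.48 without the 2 farthest arrays, and 0.45 where age and dye were left in.

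Desmin (Des), the intermediate filament of all muscle types, was lower in knockout in all 4 arrays at 6 weeks, at -0.72, -0.73, -0.37 and -0.57. At 11 months it had -0.71, -1.30, -0.52 and 0.998. The fitted changes were -0.38 ± 0.29 at 11 months (adjusted p = 0.34) and -0.60 ± 0.29 at 6 weeks (adjusted p = 0.19), so neither was called. The SE comes from all 8 arrays, 11-month array 4 included. Without that array Des was called at both ages, at -0.83 ± 0.16 (adjusted p = 0.0082) at 11 months and -0.60 ± 0.13 (adjusted p = 0.025) at 6 weeks. With r = 0.57 to Acta1 and a slope of 0.16, Des followed the fibre genes weakly.

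Myod1, the transcription factor of muscle precursors, was close to background everywhere, with levels of 6.78 to 7.05 at 11 months in knockout samples and 6.78 to 6.82 in wild-type samples. No 11-month wild-type channel was well above background, and 2 of 4 knockout channels were. The bound on its mean knockout level at 11 months over that in wild-type tissue was 1.098-fold, which is also the measured fold. With an adjusted p of 0.10 in the limma fit, no difference was called. Cacng1, a subunit of the muscle calcium channel, was also dim (mean level 7.23) and had r = 0.70 with Acta1.

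Muscle levels were higher at 11 months than at 6 weeks in both genotypes. The mean level was higher at 11 months in 43 of 44 members among knockout samples, against 47.5% of all genes, with a median difference of 3.20. Among wild-type samples it was higher in 42 of 44, against 48.3% of all genes, with a median difference of 2.26. All 4 knockout samples at 11 months lay above all 4 at 6 weeks in 36 members, against 14.5% of all genes. All 4 wild-type samples did so in 1 member, against 13.9% of all genes. The difference between these counts was not tested. Levels are compared here across slides, batches and scanner software versions, so age and batch cannot be told apart in them.

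Genes of other cell types were read beside the members. Of 82 further skeletal muscle genes 75 were tested, and their array medians moved the same way as those of the members, at -0.14, -0.64, -0.02 and 1.30 at 11 months and -0.02, -0.93, 0.26 and -0.49 at 6 weeks. In 12 of 74 of them r with Acta1 was above 0.9, against 0.577% of 21648 genes. The highest r were those of the mitochondrial creatine kinase Ckmt2 (r = 0.99, slope 1.01) and the muscle cytochrome oxidase subunit Cox6a2 (r = 0.99, slope 1.01). Next came Myh8 (r = 0.99, slope 1.16), the perinatal myosin. Levels of Myh8 lay close to those of Myh4, at 10.64, 15.36, 8.39 and 13.79 against 10.64, 15.44, 8.30 and 13.81 in 6-week wild-type samples. Whether the Myh8 probe separates it from Myh4 was not tested. At 11 months 2 of the 75 rose and 4 fell, against 17.9% and 16.8% of all genes. Amy1 (0.58 ± 0.09) and the phosphorylase kinase subunit Phkg1 (0.62 ± 0.19) rose, and the fructose bisphosphatase Fbp2 (-1.38 ± 0.17), Aldoa (-0.53 ± 0.11), the satellite cell factor Pax7 (-0.37 ± 0.09) and Fhl3 (-0.31 ± 0.07) fell. At 6 weeks 1 of the 75, the glycolytic enzyme Aldoa, rose (0.52 ± 0.11) and 1, Txlnb, fell (-2.11 ± 0.45), against 9.21% and 7.02% of all genes. In the difference between ages Amy1 rose (0.67, adjusted p = 0.013), and Aldoa (-1.06, adjusted p = 0.0050) and Fbp2 (-1.64, adjusted p = 0.0056) fell, all by limma, against 8.47% and 9.73% of all genes.

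The medians of smooth muscle and heart markers swung less from array to array than those of the members. The shares of all genes called were 17.9% up and 16.8% down at 11 months and 9.21% up and 7.02% down at 6 weeks. Over 10 of 12 smooth muscle markers the array median ranged from 0.27 to 0.48 at 11 months, where 6 rose, and from -0.02 to 0.38 at 6 weeks, where 2 rose and 2 fell. Over 6 of 10 cardiac markers it was -0.09, -0.40, -0.002 and 0.43 at 11 months, lowest in array 2 and highest in array 4 as for the members, and -0.14 to 0.01 at 6 weeks. None of the 6 was called by limma at either age. An unadjusted p below 0.05 was held by 1 of them at each age, against 7108 of 21715 genes at 6 weeks and 9714 at 11 months. Myh6, the atrial myosin, had its highest level, 8.63, in the 11-month knockout sample of array 4, against 7.67 in its wild-type partner. Brown fat markers fell in 9 of 12 members at 11 months and 0 were called at 6 weeks. Their array medians at 11 months were -2.38, -2.22, -3.03 and -1.70. Whether these medians followed those of the contractile genes was not tested. General adipocyte markers rose in 9 of 11 members at 11 months and in 6 of 11 at 6 weeks, with array medians of 1.02 to 1.24 at 11 months. The part that skeletal muscle taken along with the depot has in these ratios was not tested.

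Outside both muscle lists, the 5 genes most like Acta1 over the 8 arrays were Fbln1, Supt20, LOC100044755, Zfp975 and A630065K11Rik, with r of 0.981 to 0.995. LOC100044755 moved with a slope of 0.78, while the slopes of Fbln1, Supt20, Zfp975 and A630065K11Rik were 0.05 to 0.10, so their changes were small. Cmya5, a muscle protein picked after its values were seen, had r = 0.96 and a slope of 0.60.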

How the data were processed

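Feature Extraction files deposited by the authors give, for each spot and channel, a mean foreground and a median background intensity, and their headers name software version 10.5.1.1 for the 6-week and 10.10.1.1 for the 11-month arrays, with mm9 as the annotated build. The same deposited files carry a log10 ratio, Cy5 over Cy3, after the software's own background subtraction and dye normalization. A further table of log2 ratios was deposited, with its centring and scale unstated. Its columns correlated with the scanner ratios in the knockout over wild type direction at r of 0.856 to 0.914, and their medians were -0.05 to 0.084. The submitters' processing notes name limma. The log10 ratios and that table served as alternatives.

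Intensities were corrected with normexp (offset 50) and normalized within arrays by loess in limma 3.58.1 (R 4.3.3), with control and excluded spots at weight 0. The labelled dyes set each ratio's direction. For levels, the average intensities were quantile-normalized between arrays (Aquantile). Of 39429 probes, 26819 were kept, with a signal well above background in 4 or more of 16 channels and a value on at least 3 arrays per age. The brightest kept probe stood for a gene. Of 21715 genes, 14798 took their symbol from RefSeq (GRCm38.p6) and 6917 kept the array's name.

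A limma model of all 8 arrays had 1 coefficient per age and 1 for the dye (5 residual degrees of freedom), and p-values were adjusted over all genes by Benjamini-Hochberg. Genes with an adjusted p under 0.05 are called. The dye coefficient passed in 1104 genes (5.08%). The fit and the permutation test were tested on simulated data. The likeness p-values were adjusted over all genes in place of the members alone. With 4 arrays per age, the number of arrays limits the precision.

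The named genes were all members, Prdm16, up to 6 called genes per comparison of the further muscle list, the 5 genes outside both lists most like Acta1, and the markers of smooth muscle, heart, brown fat and adipocytes. The members and lists were chosen with earlier results of these data known. Alternatives changed the ratio, the centring, the filter, the probe rule, the dye term, the arrays, the weights, the replicate block and an Acta1 covariate.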

Additional observations from a re-analysis of the deposited data

Results flagged for a closer look

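Channel levels of the 44 members were searched for single samples far from the other 3 of their genotype and age, and so were their ratios, in 264 groups of 4 in all. Chance gives about 1 such group in 20, and 2 were found, or 0.758%, both among levels. Tpm3 had a level of 14.8 in the 11-month knockout sample of array 3, against 14.3 in each of the other 3 knockout samples. Cacng1 had a level of 7.37 in the 6-week wild-type sample of array 2, against 6.87 to 6.95 in the other 3 wild-type samples. None of the 88 groups of ratios held such an array. The change of Tpm3 differed between ages by 0.641 (limma adjusted p = 0.013), being 0.63 at 11 months and -0.01 at 6 weeks.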

How the results depend on the processing

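A total of 21 alternatives was run, 2 of them chosen after the data were seen. Of 2668 single-gene values under them, 13 passed newly, 4 ceased to pass and 0 called values turned sign. Uncalled members changed sign 326 times. The number of members called was 0 at 6 weeks, 1 at 11 months and 1 in the difference between ages. Median centring gave 0 in the difference (Tpm3 0.56, adjusted p = 0.13). The mean of all kept probes gave 0 at 11 months and 0 in the difference. Each age modelled alone gave 1 at 6 weeks (Des -0.60, adjusted p = 0.0093). The Acta1 ratio as a covariate gave 1 at 6 weeks, 2 at 11 months and 2 in the difference, with Mb -2.53 in the difference (adjusted p = 0.020) and Mybpc2 -0.51 at 11 months (adjusted p = 0.017). Without 6-week arrays 2 and 4 and 11-month array 4, an alternative chosen after the data were seen, there were 1 at 6 weeks (Mb 2.51) and 4 at 11 months (Mb -1.15, Des -0.82, Atp2a1 -1.04 and Tpm3), Tpm3 was lost in the difference (adjusted p = 0.14) and Mb gained (-3.66), and the members' median was 0.52 at 6 weeks and -0.64 at 11 months. Leaving out 1 array at a time gave 0 to 2 at 6 weeks, 1 to 2 at 11 months and 1 to 2 in the difference, the higher counts all without 11-month replicate 4. The members' median then lay between -1.89 and -0.08 at 6 weeks and between -0.64 and 0.32 at 11 months. Members with r of 0.9 or above with Acta1 numbered 27, 25 without the dye and age adjustment, 30 with the scanner ratio and 19 of 43 without the 2 farthest arrays. Those added by the scanner ratio were Actn2 (0.95), Xirp2 (0.98) and Mylpf (0.98), against 0.898, 0.876 and 0.818 in the main ratios. Tpm3 at 11 months passed in 20 of 21 alternatives, with adjusted p between 0.00081 and 0.18. Averaging 11-month arrays 1 and 2 into 1 gave 0, 1 and 1. With the replicate block the counts were 0 at 6 weeks, 1 at 11 months and 1 in the difference. Array weights gave the same counts, with a members' median of -0.45 at 11 months. Deviations of same-numbered arrays of both ages had r of -0.117, -0.053, -0.199 and -0.064. The dye effect was left in these deviations, and same-numbered arrays carried the knockout in opposite dyes. These r therefore cannot show whether the numbers pair the samples. Over all genes, calls at 6 weeks numbered 3524, against 949 under median centring, 2277 with the scanner ratio, 2146 with the Acta1 covariate, 804 without the 3 arrays and 1238 to 2067 without 1 of the 6-week arrays. At 11 months they numbered 7544, against 4909 under median centring, 4871 without the 3 arrays and 5027 without 11-month array 2. In the difference they numbered 3952, against 552 under median centring, 2519 without the dye term, 2517 with the covariate, 688 without the 3 arrays, 2456 with 11-month arrays 1 and 2 averaged, and 2119 to 2481 without 6-week array 2 or 4 or 11-month array 2. The cause of these changes was not tested. Signal over background limits Myog, Myod1, Mylpf, Cacng1 and the dim Tpm3 probe. At 6 weeks it also limits Tnni1, Tnnc1, Sln, Ampd1, Trdn, Xirp2, Casq1 and Ryr1. Each of these was then well above background in at most 2 of 4 channels of 1 genotype or of both. The offset shrinks the ratios of all of these.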
